A study of Mus musculus with 3 samples.

Results

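The genes described are 47 genes of NF-kappaB signalling, cytokines and the acute phase response, out of 36403 gene names with an unflagged probe on the array. They were chosen by gene name, with chemokines left out, and each gene was read from the probe with the highest mean log2 signal over the 3 arrays. All 47 were on the array, with 89 unflagged probes, of which 20 genes had 1 and 27 had several. The measured cells were mpkDCT, a mouse kidney line of distal convoluted tubule origin, and CRISPR-Cas9 had been used in them to knock out Cyp27b1, the gene of the 1α-hydroxylase that turns calcidiol into calcitriol. All groups carried this knockout and were kept in 2% charcoal-stripped serum without phenol red. The 3 groups were vehicle, calcitriol (1,25(OH)2D3) at 1e-07 M and calcidiol (25(OH)D3) at 1e-07 M, each for 24 h and each measured on 1 array. The third group is named here by its treatment tag, since its free-text description writes 25(OH)2D3, and the labels do not resolve the difference. The knockout sets calcidiol, the compound without the 1α-hydroxyl group, beside calcitriol in cells whose activating enzyme had been targeted. The labels give neither the number of knockout clones nor the meaning of a tag (siCT) in the sample titles.

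NF-kappaB is a family of dimeric transcription factors that inhibitory IkappaB proteins hold in the cytoplasm. Cytokine and Toll-like receptors activate the IkappaB kinase complex, the inhibitor is degraded, and the freed dimer enters the nucleus and binds kappaB sites. Its targets include the gene of its own inhibitor, so the pathway carries a feedback loop, and in kidney tubules it drives cytokine and acute phase genes during injury. Interleukin-6-type cytokines signal in parallel through the shared receptor gp130 and the factor STAT3. The ligand-bound vitamin D receptor is known to restrain NF-kappaB in several cell types.

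Since each group had 1 array, the differences have no replicate check, and no test or p-value is given. Levels are processed signals scaled to the vehicle array's 75th percentile. They are compared between arrays and not between genes. Differences are on the log2 scale, and ± is the technical error of the spots as computed by the scanner software, without the variation between cultures. Centring the arrays on their medians instead moves all differences by 0.12 for calcitriol against vehicle, -0.06 for calcidiol against vehicle and 0.18 between the hormones, so that values nearer to 0 than this have no settled sign. A fold of 2 is used as a size, not as a test. Depth is set by brightness: 48.8%, 47.7% and 47.5% of unflagged probes were well above background on the vehicle, calcitriol and calcidiol arrays, here also called detected, and the lowest scaled signals so called were 13.4, 13.5 and 16.5. Each array had its own position on a single slide, so position and treatment cannot be told apart.

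The labels were checked first. The Cyp27b1 probe was not detected on any array, but the labels do not say which bases of the gene were edited, and the probe therefore checks nothing about the knockout. Cyp24a1, the vitamin D-inactivating 24-hydroxylase and a classical receptor target, was not detected with vehicle and had scaled signals of 5319 with calcitriol and 267 with calcidiol. Of 8 distal convoluted tubule markers, 4 were not detected on any array, the sodium-chloride cotransporter Slc12a3 among them. Of 6 epithelial markers, 5 (Epcam, Cdh1, Krt8, Krt18 and Krt19) were likewise not detected on any array. The kidney genes Cdh16 and Pax8 and the mesenchymal genes Vim and Cdh2, chosen after the markers' values were seen, were detected on all 3 arrays. So was the epithelial keratin Krt7, chosen at the same point, at scaled signals of 23.8 with vehicle, 94.7 with calcitriol and 42.3 with calcidiol. Of 12 leukocyte and macrophage markers, 4 (Adgre1, Tyrobp, Cd52 and Cd79a) were not detected on any array. The others included Ptprc, Itgam and Csf1r on all 3, and the summed scaled signal of the list was 3432 with vehicle, 3070 with calcitriol and 3574 with calcidiol. In bulk RNA, fewer cells of a type and less RNA per cell cannot be told apart.

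Most of the 47 genes were measured and differed little between the arrays. On all 3 arrays 34 genes were well above background, 1 on 2 arrays, 2 on the vehicle array alone and 10 on none. With calcitriol 0 genes of the set were 2-fold from vehicle, by a difference or by a bound, beside 1.34% of 17793 genes on the array that were higher and 2.12% that were lower. With calcidiol 1 was higher, the interleukin-22 receptor subunit Il22ra1, beside 1.54% of 17585 genes, and 0 were lower, beside 0.296%. At 1.5-fold by difference, 2 were higher with calcitriol (Nfkbia and Nfkbiz), beside 3.38% of 16671 genes, and 4 were lower (Il18, Hbegf, Il1r1 and Tlr3), beside 6.26%. With calcidiol Il22ra1 was higher at this size and Tlr3 lower, beside 2.84% and 1.33% of 16664 genes. As shares of the genes of the set measured in that comparison, these are 5.88% and 11.8% with calcitriol and 2.86% and 2.86% with calcidiol, each resting on 1 to 4 genes. The median difference of the measured genes was 0.01 with calcitriol (34 genes) and -0.01 with calcidiol (35 genes), beside -0.0047 and -0.0096 over all measured genes.

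**Figure D1:**
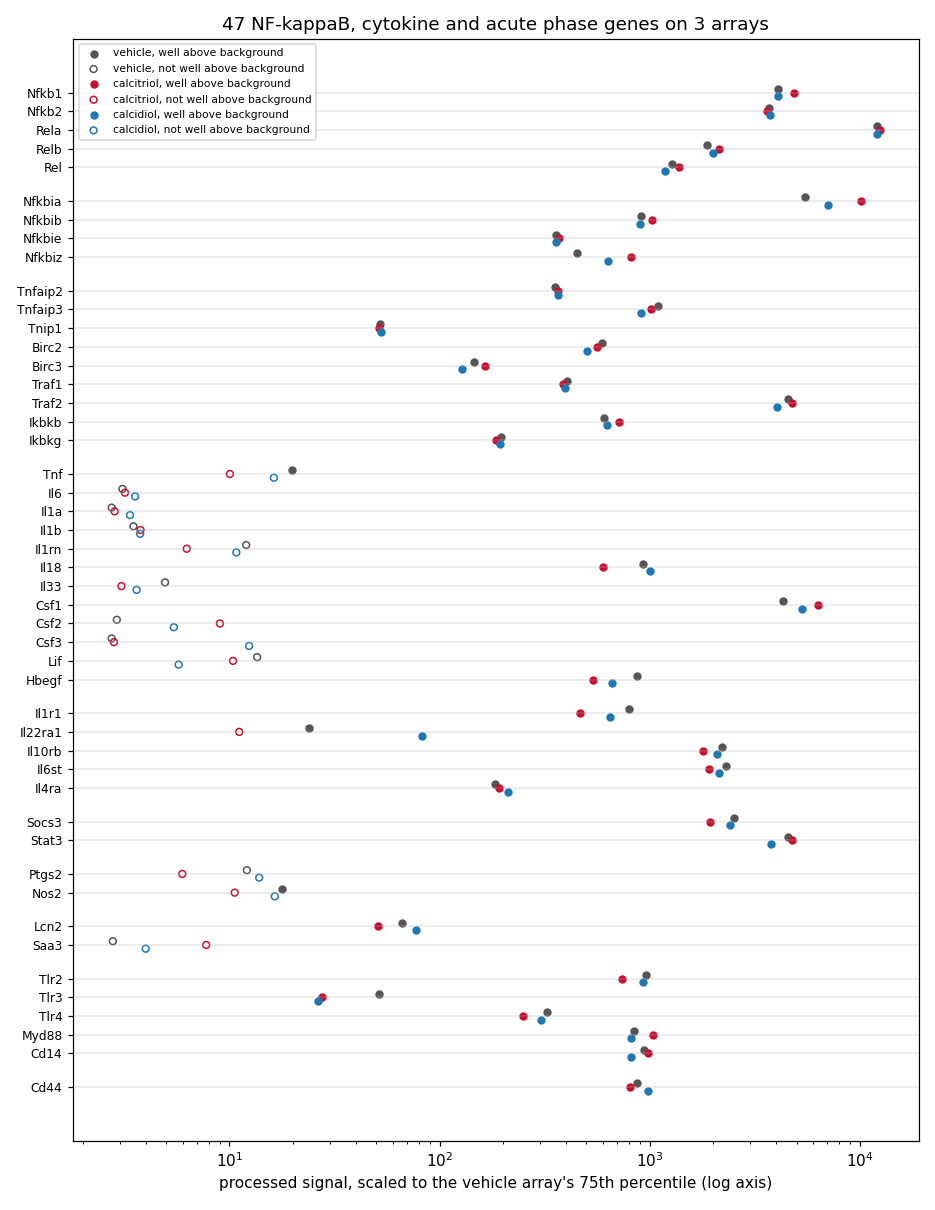
Processed signal of each of the 47 genes on the vehicle, calcitriol and calcidiol arrays (log axis, scaled to the vehicle array's 75th percentile), ordered by role. Filled points are well above background and open points are not. The cytokine genes Il6, Il1a, Il1b, Il33, Csf2 and Csf3 have open points on all 3 arrays, whereas the NF-kappaB subunits at the top are filled and nearly coincide.

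Among the 4 IkappaB family genes, read from the brightest probe, 2 passed 1.5-fold upward with calcitriol, beside 3.38% of all measured genes. With calcidiol 0 did so, beside 2.84%. The 2 with calcitriol were Nfkbia and Nfkbiz, and Nfkbiz encodes a nuclear member of the family. Nfkbia, which encodes IkappaBα, the inhibitor that NF-kappaB itself induces, had a scaled signal of 5500 with vehicle, 10132 with calcitriol and 7064 with calcidiol. Calcitriol was the highest and vehicle the lowest. The difference from vehicle was 0.88 ± 0.20 with calcitriol, 1.84-fold, and 0.36 ± 0.20 with calcidiol, 1.28-fold. Nfkbia rests on a single probe, on the minus strand of chromosome 12 at 56590945 to 56591440 of mm9. Its 60 bases are spread over 496 bases of genome, so the probe crosses an exon junction of the mature transcript, and it is printed because no second probe checks this gene.
Nfkbia probe: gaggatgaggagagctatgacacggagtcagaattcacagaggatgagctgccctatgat

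Nfkbiz encodes IkappaBζ, a nuclear family member that acts as a cofactor at secondary target genes such as Lcn2. Its scaled signal was 453 with vehicle, 816 with calcitriol and 635 with calcidiol, the same order as Nfkbia. The differences from vehicle were 0.85 ± 0.20 with calcitriol and 0.49 ± 0.20 with calcidiol. A dimmer detected probe of Nfkbiz gave 0.97 and 0.81, and a further probe was not detected on any of the arrays. As the mean over detected probes Nfkbiz was at 0.65 with calcidiol, past 1.5-fold. The count of 0 IkappaB family genes with calcidiol therefore depends on the probe. The other IkappaB genes lay closer to vehicle. Nfkbib, IkappaBβ, was at 0.18 with calcitriol and -0.01 with calcidiol, and Nfkbie, IkappaBε, at 0.06 and 0.01. A second probe of Nfkbib gave 0.54 and 0.25.

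The 5 subunits, by contrast, were nearly level. Rela, the p65 subunit of the canonical dimer, had scaled signals of 12030 with vehicle, 12482 with calcitriol and 12030 with calcidiol. Nfkb1, the p105 precursor of p50, was at 0.26 ± 0.20 with calcitriol and 0.01 with calcidiol, and 2 further probes gave 0.21 and 0.28 with calcitriol. Nfkb2, the p100 precursor of p52, was at -0.04 and 0.02, and Relb, its partner in the non-canonical dimer, at 0.18 and 0.10. Of 2 further Relb probes 1 gave 0.04 and -0.12 and the other -0.31 and -0.20, so its direction is unsettled. Rel, the c-Rel subunit, was at 0.11 and -0.11 by its brightest probe, and a dim second probe gave -0.52 and 0.18. Over the subunits the differences ran from -0.04 to 0.26 with calcitriol and from -0.11 to 0.10 with calcidiol.

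The kinase complex and the adaptors stayed within a narrow band as well. Ikbkb, the catalytic IKKβ, was at 0.24 with calcitriol and 0.04 with calcidiol, and Ikbkg, the scaffold NEMO, at -0.08 and -0.01. A second detected probe of Ikbkb gave -0.27 with calcitriol, and 2 of Ikbkg gave -0.40 and 0.23, so the probes of these genes do not settle a direction. Tnfaip3, the ubiquitin-editing enzyme A20 and a well-known feedback target of NF-kappaB, had scaled signals of 1091 with vehicle, 1018 with calcitriol and 908 with calcidiol. Vehicle was the highest, and the differences were -0.10 ± 0.20 and -0.27 ± 0.20. Birc3, a target of NF-kappaB that encodes the ubiquitin ligase cIAP2, was at 0.17 with calcitriol and -0.19 with calcidiol. Over the 9 genes of this group, which also holds Tnfaip2, the A20-binding Tnip1, Birc2 and the adaptors Traf1 and Traf2, differences ran from -0.10 to 0.24 with calcitriol and from -0.27 to 0.05 with calcidiol. Tnip1 was read from a dim probe, at 52.0 with vehicle. Its brighter probe carried an outlier flag and had scaled signals of 6218, 5521 and 10369 in the order vehicle, calcitriol and calcidiol.

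**Figure D2:**
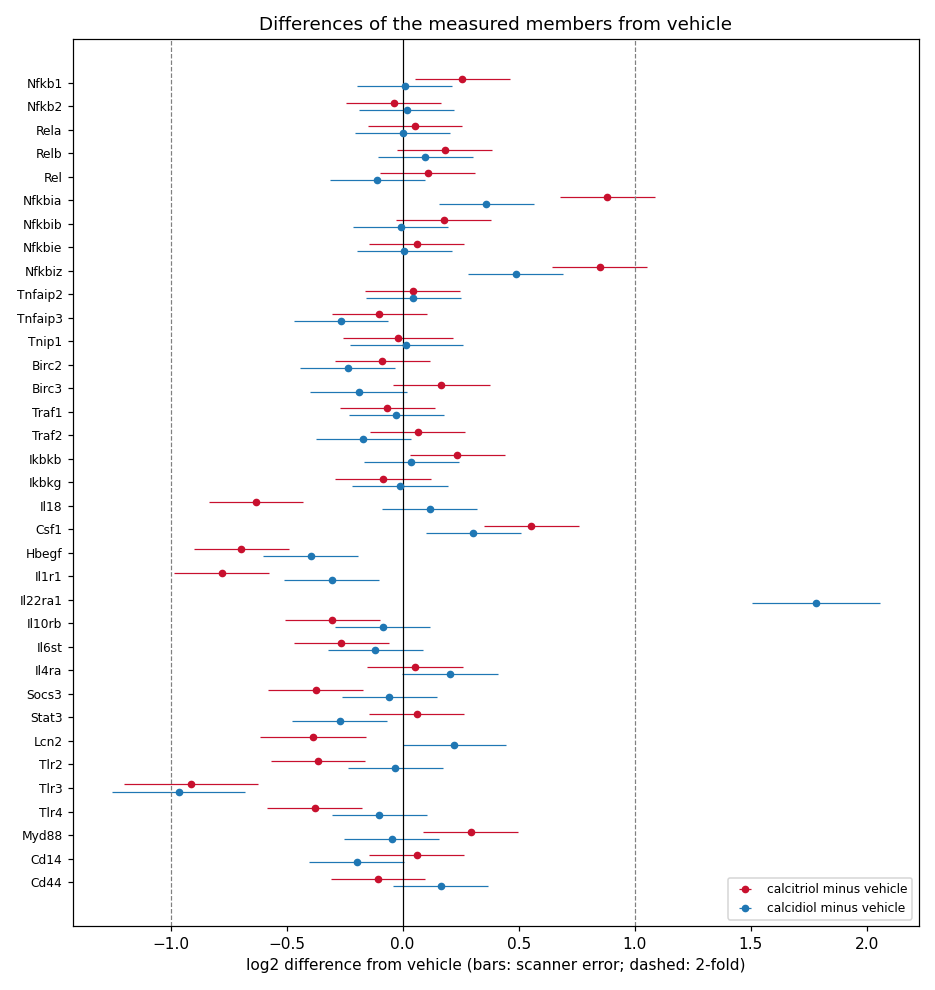
Log2 difference from vehicle of the genes measured on both arrays, with calcitriol in red and calcidiol in blue; bars are the scanner error and dashed lines mark 2-fold. Nfkbia and Nfkbiz lie farthest to the right with calcitriol (0.88 and 0.85) and Tlr3 farthest to the left (-0.91). Il22ra1 has a calcidiol point alone, at 1.78, because it was not well above background with calcitriol.

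Of the 12 cytokine and growth factor genes, 3 were well above background on all 3 arrays. The genes of the classical inflammatory cytokines Il6, Il1a and Il1b, the interleukin-1 receptor antagonist Il1rn, the alarmin Il33, the colony-stimulating factors Csf2 and Csf3, and the gp130 ligand Lif were not detected on any of the 3 arrays. Their scaled signals lay between 2.75 and 13.5. No fold is given for them. Tnf was well above background with vehicle alone, with scaled signals of 19.95 with vehicle, 10.1 with calcitriol and 16.3 with calcidiol. A bound against the lowest signal well above background puts it at least 1.48-fold lower with calcitriol and at least 1.21-fold lower with calcidiol, from a spot near the detection limit.

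Csf1, macrophage colony-stimulating factor and a target of NF-kappaB, had scaled signals of 4285 with vehicle, 6290 with calcitriol and 5293 with calcidiol. Both hormones were above vehicle, by 0.55 ± 0.20 and 0.30 ± 0.20. The other detected probes gave 0.39 and 0.37 with calcitriol and 0.28 and 0.17 with calcidiol, all in the same direction. Il18, a cytokine stored as a precursor in epithelial cells, went the other way. Its scaled signal was 929 with vehicle, 600 with calcitriol and 1008 with calcidiol, so calcitriol was the low array. The difference was -0.63 ± 0.20 with calcitriol, 1.55-fold lower, and 0.12 ± 0.20 with calcidiol. The calcitriol value was under 1.5-fold after median centring (-0.51) and with normexp and quantile normalisation (-0.57). Il18 was read from 1 probe on chromosome 9 at 50389886 to 50389942 of mm9. Hbegf, a membrane-anchored ligand of the epidermal growth factor receptor, was at 866 with vehicle, 535 with calcitriol and 658 with calcidiol. Both hormones lay below vehicle, by differences of -0.70 ± 0.20 and -0.40 ± 0.20, and after median centring the first was -0.57, under 1.5-fold. A second Hbegf probe was not detected on any array.

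Among the cytokine receptors, Il1r1, the signalling receptor of interleukin-1, had scaled signals of 799 with vehicle, 466 with calcitriol and 647 with calcidiol. Vehicle was the highest and calcitriol the lowest, with differences of -0.78 ± 0.20 and -0.31 ± 0.20. Its single probe lies 5 rows or columns from the edge of the array, and the effect of that position was not tested.

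Il22ra1, the epithelial subunit through which interleukin-22 activates STAT3, showed the widest spread of the set. Its scaled signals were 24.0 with vehicle, 11.1 with calcitriol, which was not well above background, and 82.6 with calcidiol. The hormones thus lay on opposite sides of vehicle. With calcidiol it was 3.44-fold higher, a log2 difference of 1.78 ± 0.27 that ranked 27 from the highest of 16664 genes, and with calcitriol at least 1.78-fold lower. The probe lies on chromosome 4 at 135308423 to 135308482 of mm9, and the gene's other probe was not detected on any array. These are dim spots: with normexp background correction and quantile normalisation the calcidiol difference was 0.72 and the calcitriol difference -0.22, and an offset of 32 gave 1.03 and -0.30. Il10rb, which pairs with Il22ra1, was at -0.30 with calcitriol and -0.09 with calcidiol. Il6st, the shared receptor gp130, was at -0.26 and -0.12, and a dimmer probe gave -0.69 and -0.07. Il4ra, the interleukin-4 receptor, was at 0.05 and 0.20.

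STAT3 itself and its feedback inhibitor stayed within 1.5-fold. Stat3 had scaled signals of 4574 with vehicle, 4767 with calcitriol and 3789 with calcidiol, and the differences were 0.06 ± 0.20 and -0.27 ± 0.20. Socs3, the inhibitor that STAT3 induces, was at 2509, 1935 and 2410 in the same order, with calcitriol the lowest at -0.37 ± 0.20 and calcidiol at -0.06.

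The inflammatory enzymes were at or below the detection limit. Ptgs2, cyclooxygenase-2, was not detected on any array. Nos2, the inducible nitric oxide synthase, was detected on the vehicle array alone, at a scaled signal of 17.7. Its bounds are at least 1.31-fold lower with calcitriol and at least 1.07-fold lower with calcidiol.

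Of the acute phase genes, Saa3, a serum amyloid, was not detected on any array. Lcn2, the iron-siderophore-binding protein used as a marker of tubular injury, had scaled signals of 66.4 with vehicle, 50.8 with calcitriol and 77.4 with calcidiol. Calcitriol was the lowest and calcidiol the highest, with differences from vehicle of -0.39 ± 0.23 and 0.22 ± 0.22. A second Lcn2 probe was not detected on any array.

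Among the Toll-like receptors, Tlr3, the endosomal sensor of double-stranded RNA, was the one lower at 1.5-fold with both compounds. Its scaled signals were 51.7 with vehicle, 27.5 with calcitriol and 26.5 with calcidiol, so both hormone arrays lay together below vehicle. The differences were -0.91 ± 0.29 and -0.97 ± 0.29, and the second ranked 30 from the lowest of 16664 genes. Tlr3 was read from a dim probe on chromosome 8 at 46495198 to 46495257 of mm9, its single unflagged probe. A further Tlr3 probe was flagged and left out. With normexp and quantile normalisation the differences were -0.35 and -0.34. With an offset of 32 they were -0.49 and -0.52, in each case under 1.5-fold. Tlr2, the receptor of bacterial lipoproteins, was at 955 with vehicle, 742 with calcitriol and 934 with calcidiol, differences of -0.36 and -0.03. Tlr4, the lipopolysaccharide receptor, was at -0.38 with calcitriol by its brightest probe and at 0.42 by another detected one, so its direction is unsettled. Cd14, the lipopolysaccharide co-receptor, was at 0.06 with calcitriol and -0.20 with calcidiol, and the shared adaptor Myd88 at 0.29 and -0.05. Cd44, the hyaluronan receptor, was at -0.11 and 0.16.

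The hormones were next set against each other, as a single pair of compounds at the same dose and time that differ by the 1α-hydroxyl group of calcitriol. Of the 34 genes measured on both hormone arrays 18 were above 0 and 16 below, with a median of 0.05 beside 0.0035 over all 16517 measured genes. Past 2-fold, 1 gene of the set was lower with calcitriol, beside 2.21% of 17488 genes, and 0 were higher, beside 0.675%. This was Il22ra1, for which the bound was at least 6.12-fold, a log2 value of -2.61. An offset of 32 gave -1.33, and normexp with quantile normalisation -0.93. At 1.5-fold by difference 2 genes were lower with calcitriol, beside 5.55%, and 0 were higher, beside 2.16%. Il18 was at -0.75 ± 0.20, 1.68-fold lower, and Lcn2 at -0.61 ± 0.23, 1.53-fold lower. Lcn2 was under 1.5-fold in 5 of 9 other settings, at -0.26 with normexp and quantile normalisation, -0.40 with an offset of 32 and -0.42 after median centring among them. Il18 was at -0.56 after median centring, also under 1.5-fold. Nfkbia was higher with calcitriol by 0.52 ± 0.20 and Nfkbiz by 0.36 ± 0.20. After median centring Nfkbia was at 0.70, past 1.5-fold, so the counts at this size depend on the scaling in both directions. Il1r1 was at -0.47 ± 0.20 and Hbegf at -0.30 ± 0.20. For Tlr3 the compounds were 0.05 ± 0.33 apart, an interval that runs past both sides of 0 and does not show that they act alike. The comparisons with vehicle share the vehicle array, so the joint position of a gene in both is not independent.

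**Figure D3:**
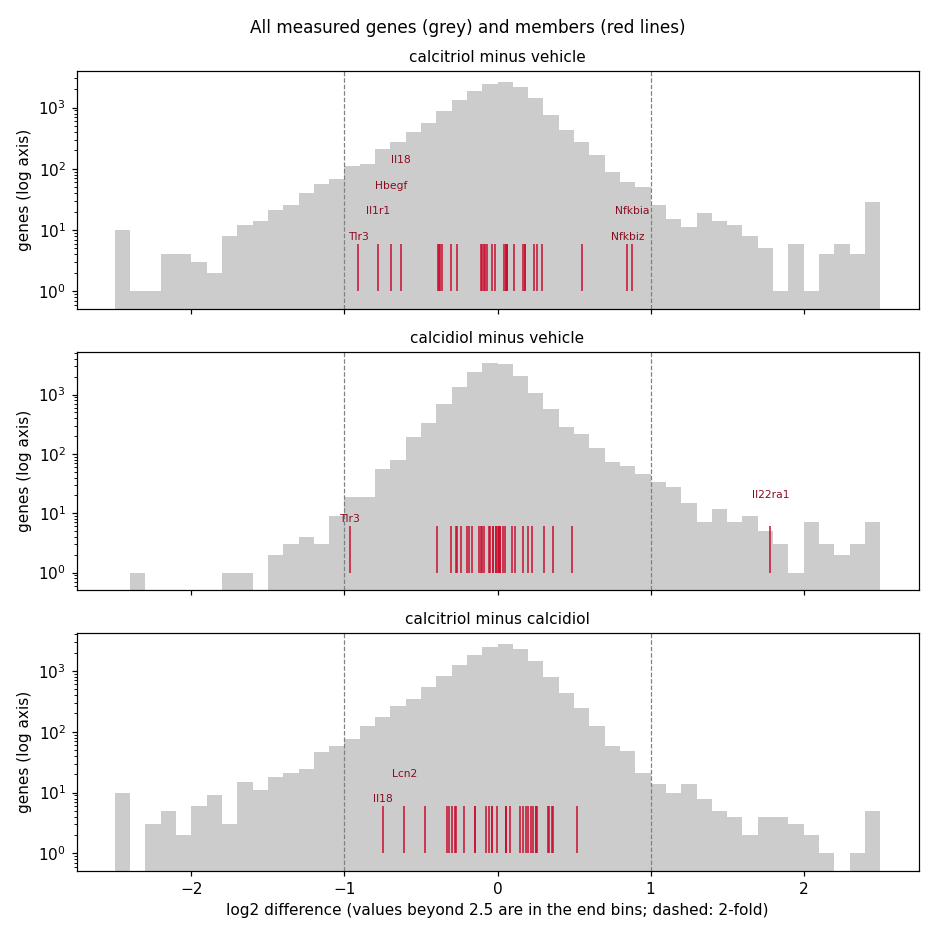
Distribution of log2 differences of all genes measured on both arrays (grey, number of genes on a log axis) with the genes of the set as red lines, for calcitriol minus vehicle, calcidiol minus vehicle and calcitriol minus calcidiol; dashed lines mark 2-fold. The genes at least 1.5-fold apart are named; Il22ra1 at 1.78 with calcidiol is the one red line beyond a dashed line.

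The other probes give a measure of how far a single probe can be trusted. Besides the brightest probes, 24 detected probes of 19 genes allowed the calcitriol difference from vehicle to be read again. The median gap to the brightest probe was 0.14 with calcitriol and 0.12 with calcidiol, and the largest was 0.80 and 0.42, both in Tlr4. Of the 24 probes, 17 had the sign of the brightest probe with calcitriol, and 14 of 23 with calcidiol. Nfkbiz and Csf1 had second probes on the same side, whereas Nfkbia, Il18, Il1r1 and Tlr3 had a single unflagged probe. The other probes of Hbegf, Il22ra1 and Lcn2 were not detected.

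**Figure D4:**
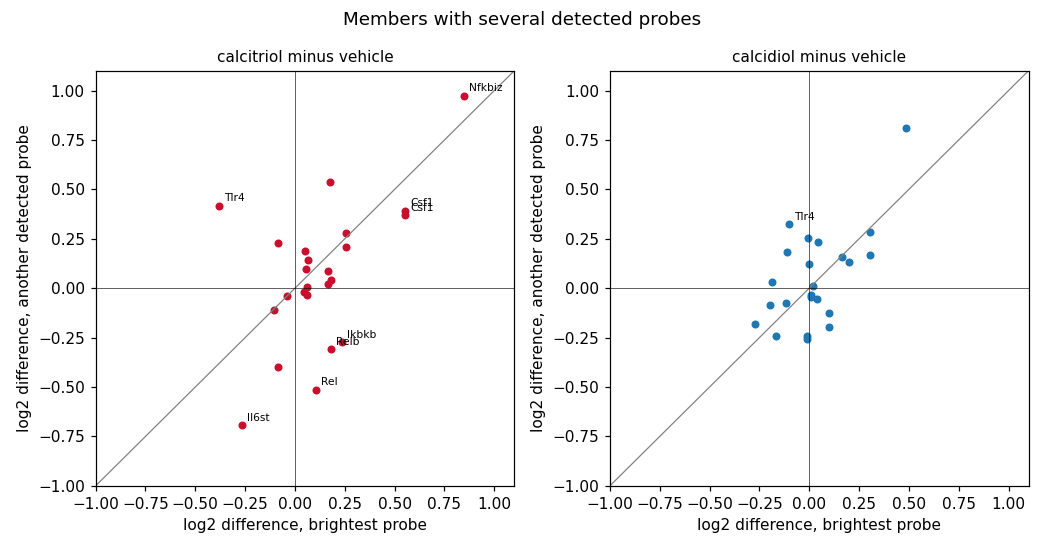
Log2 difference of other detected probes (vertical) against that of the gene's brightest probe (horizontal) for calcitriol and calcidiol against vehicle; the diagonal marks equality. Nfkbiz lies near the diagonal at 0.85 and 0.97 with calcitriol, and Tlr4 in the upper left at -0.38 and 0.42.

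Promoters were searched because the set includes known targets of NF-kappaB, which binds kappaB sites. RefSeq windows (GRCm38.p6) were matched by symbol for 37 of the 47 genes, in 48 windows of the 250 bases before a transcription start. The kappaB consensus, read on both strands, occurred in 16 of 48 windows, 33.3%, from 14 genes, beside 7.25% of 32851 windows of the same length. Since genes were chosen for their part in NF-kappaB signalling, this share in part restates the choice. TTCNNNGAA, the core of a STAT site, occurred in 8.33% of the windows beside 7.02%, and the spacer-3 direct repeat of a vitamin D response element in none beside 0.0396%. Genes with and without the letters lay on both sides of vehicle. Of 11 measured genes whose window holds the kappaB consensus, 5 were above 0 with calcitriol and 6 below, with a median of -0.02, and of 15 without it 7 were above and 8 below, with a median of -0.07. Both groups include genes with differences past 1.5-fold. A match is a description of the sequence and not a bound site. The windows printed belong to genes that lay on different sides of vehicle, with the kappaB consensus in capitals: Nfkbia and Csf1, higher with both hormones; Tlr3, lower with both; Il22ra1, on opposite sides; and Il18, lower with calcitriol, whose window holds no match. They lie at chr12:55492648-55492897, chr3:107760470-107760719, chr8:45410381-45410630, chr4:135727909-135728158 and chr9:50554450-50554699, the first 3 on the minus strand. In order the matches end 20, 145, 202 and 147 bases before the start.
Nfkbia promoter: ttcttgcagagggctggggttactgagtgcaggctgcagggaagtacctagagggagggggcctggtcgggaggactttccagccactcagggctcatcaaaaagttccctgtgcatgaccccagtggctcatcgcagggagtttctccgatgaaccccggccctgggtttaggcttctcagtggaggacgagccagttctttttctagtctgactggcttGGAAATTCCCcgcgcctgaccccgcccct
Csf1 promoter: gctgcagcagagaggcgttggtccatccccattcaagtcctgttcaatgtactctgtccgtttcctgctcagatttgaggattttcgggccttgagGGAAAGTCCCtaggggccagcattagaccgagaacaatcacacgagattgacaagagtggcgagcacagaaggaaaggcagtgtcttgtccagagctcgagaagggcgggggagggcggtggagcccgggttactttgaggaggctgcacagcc
Tlr3 promoter: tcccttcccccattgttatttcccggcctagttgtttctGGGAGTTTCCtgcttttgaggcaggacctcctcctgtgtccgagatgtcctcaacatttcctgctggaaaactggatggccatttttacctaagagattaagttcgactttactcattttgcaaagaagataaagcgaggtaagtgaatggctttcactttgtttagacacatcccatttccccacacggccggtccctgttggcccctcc
Il22ra1 promoter: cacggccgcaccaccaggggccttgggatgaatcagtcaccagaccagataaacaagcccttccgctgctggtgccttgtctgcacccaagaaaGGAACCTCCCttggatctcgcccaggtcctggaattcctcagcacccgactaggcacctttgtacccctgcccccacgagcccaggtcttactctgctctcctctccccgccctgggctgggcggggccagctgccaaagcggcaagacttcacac
Il18 promoter: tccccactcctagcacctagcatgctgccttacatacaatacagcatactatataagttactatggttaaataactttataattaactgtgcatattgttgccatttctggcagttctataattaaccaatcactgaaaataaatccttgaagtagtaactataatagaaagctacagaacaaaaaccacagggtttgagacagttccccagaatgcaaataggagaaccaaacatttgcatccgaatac

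Genes around the set were counted from lists of the same pathways. Of 36 upstream receptors and adaptors 33 were measured with calcitriol, 22 of them above 0, or 66.7% beside 49.2% of all measured genes, and the median of 0.05 is below the shift that median centring makes. Il1rl1, the receptor of interleukin-33, had dim scaled signals of 32.3 with vehicle, 12.6 with calcitriol and 30.9 with calcidiol. With calcitriol it was not well above background, so only bounds can be given. These put it at least 2.39-fold lower with calcitriol than with vehicle and at least 2.29-fold lower than with calcidiol. The scanner errors were 0.40 and 0.41 on the log2 scale, and the bounds were not read under the other settings. Of 16 measured other NF-kappaB targets 6 were above 0 with calcitriol, 37.5%, and 10 below, with a median of -0.13. Median centring raises this comparison by 0.12, about the size of that median, so these counts do not place the list below vehicle. Edn1, endothelin-1, was 2.62-fold higher with calcitriol, a difference of 1.39 ± 0.20, at scaled signals of 342 with vehicle, 896 with calcitriol and 566 with calcidiol. Of 18 measured gp130 and STAT3 genes 9 were above 0 and 9 below with calcitriol. Lifr, the leukaemia inhibitory factor receptor, was 2.01-fold higher with calcitriol (1.01 ± 0.21), at 86.2 with vehicle, 173 with calcitriol and 93.9 with calcidiol. Of 7 measured other acute phase genes none was 2-fold apart in any comparison, and 4 were above 0 with each hormone against vehicle. With calcidiol against vehicle no gene of these lists was 2-fold apart, beside 1.54% of genes on the array that were higher and 0.296% lower. With calcitriol the array-wide shares were 1.34% and 2.12%, and between the hormones 0.675% and 2.21%. At such shares short lists can hold no call, so counts of none do not set these lists apart.

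The summed markers of other cell types shared the order of some of these genes over the 3 arrays. With 1 array per group, an order can be shared without a link. The fibroblast list, with 2 of 7 markers detected (Col1a1 and Dcn), had summed scaled signals of 428 with vehicle, 155 with calcitriol and 252 with calcidiol, the same order as Hbegf and Il1r1. The endothelial list, with 1 of 5 detected (Kdr), summed to 137, 80.6 and 117. The defining markers Pdgfra, Pdgfrb, Pecam1 and Cdh5 were not detected on any array. The proximal tubule list, with 3 of 6 detected (Lrp2, Cubn and Aqp1), summed to 3272 with vehicle, 5855 with calcitriol and 4471 with calcidiol. This is the order of Nfkbia, Nfkbiz and Csf1, but among the detected markers it is that of Lrp2 alone (1923, 4974 and 3530). Aqp1 (1189, 739 and 777) and Cubn (151, 133 and 149) were highest with vehicle. The leukocyte and macrophage list summed to 3432 with vehicle, 3070 with calcitriol and 3574 with calcidiol, the order of Il18, Lcn2 and Il22ra1. It was the order of Csf1r (1570, 1318 and 1774) and not of Itgam or Ptprc. The part of these cell types in the differences was not tested.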

How the data were processed

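Total RNA from the 3 samples was amplified, labelled with Cy3 and hybridised to 1-colour Agilent mouse arrays, per the labels. The deposited scanner files give linear spot intensity. Background subtraction, detrending and the mm9 positions of probes come from Agilent Feature Extraction, version 10.7.1.1 per the file headers and 9.5.1.1 per the submitters' processing notes. The deposited value table holds linear intensity with a log2 median of 3.71 in each column; the sources used here do not name its normalising tool, and it served as an alternative. Control spots and flagged spots were left out. The log2 signal minus each array's 75th percentile over non-control spots (371.1, 379.8 and 400.8 for vehicle, calcitriol and calcidiol) was compared, if both arrays had the probe well above background. Where a gene had no probe so called on 1 array, a bound was set against the dim probe's own signal or, if higher, the lowest signal so called on that array. Precision is limited by the 3 arrays. No spot was saturated. Genes keep the array's names, and 5 list names were not found on it.

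The genes described in full were at least 1.5-fold apart in a comparison or had a bound of at least 2-fold. The subunits, IkappaB genes, kinase genes and best-known targets were described as well. The genes and lists were chosen with earlier results of these data known. The counting code was run on simulated data, with changes larger than 2-fold planted in detected genes that were not dim and noise from the scanner error alone. It therefore says nothing about variation between cultures, smaller differences or dim spots. Alternatives were median and quantile scaling, normexp with an offset of 50, a linear offset of 32, no filter or a stricter one on dim probes, outlier spots kept, the mean over probes, the value table, 1.5-fold and 3-fold, and leaving out the outermost 6 rows and columns. Python 3.11.15, numpy 2.4.6, pandas 2.3.3, scipy 1.17.1 and matplotlib 3.10.9 and R 4.3.3 with limma 3.58.1 were used.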

Additional observations from a re-analysis of the deposited data

How the results depend on the processing

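No paired analysis was possible because each group had 1 array. With 0.20, the median scanner error of a single gene's difference, as the width, the medians of the set stayed within it under the 10 settings. They ran from -0.02 to 0.13 for calcitriol against vehicle (0.01 as reported), from -0.07 to -0.0079 for calcidiol against vehicle (-0.01) and from -0.04 to 0.24 between the hormones (0.05). Without a filter on dim probes the first was -0.02 and the third -0.04, and the first was also -0.02 as a mean over probes, so these signs are not settled. The 8 genes at least 1.5-fold apart in a comparison, or with a bound of 2-fold, gave 228 values under an alternative. Of these, 216 stayed within the scanner error, and 12 moved by more. Part of the 216 was fixed in advance. Changing the filter, keeping outlier spots and leaving out the edge return the same value where a detected probe stays. Averaging probes does so for a gene with a single detected probe. For Nfkbia with calcitriol all of these gave 0.88. Median centring moves each value and the median of a comparison alike, by 0.12, -0.06 or 0.18. These shifts are smaller in size than 0.20, so this setting could not count as a move for a gene or a median. For a median over the set, the error of a single gene is also a wide measure. The values of at least 2-fold were those of Il22ra1 alone, with calcidiol against vehicle and between the hormones, and neither changed sign. Tlr3 between the hormones, 0.05 as reported, was at -0.0076 with normexp and quantile normalisation. Genes 2-fold from vehicle with calcitriol, 0 as reported, numbered 1 after centring on each array's median (Nfkbia, 1.00), 4 without a filter on dim probes and 7 at 1.5-fold, where Il22ra1 enters by its bound. With calcidiol, 1 as reported, they numbered 2 after median centring, after quantile normalisation and in the value table (Tlr3 in addition), 0 with normexp and quantile normalisation or without genes below the 25th percentile, 3 without the filter and 2 at 1.5-fold. Between the hormones, 1 as reported, they numbered 0 with normexp and quantile normalisation or without genes below the 25th percentile, 3 without the filter and 3 at 1.5-fold, again with Il22ra1 by its bound. In the counts of 0, Il22ra1 with calcidiol was either at 0.72 (normexp) or left out as too dim (25th percentile); with an offset of 32 it was at 1.03. After median centring the array-wide median lay away from the reported one by 0.12, -0.06 and 0.18 for calcitriol against vehicle, calcidiol against vehicle and calcitriol against calcidiol, and the higher and lower calls over the array from 239 and 378 to 318 and 267, from 271 and 52 to 228 and 64, and from 118 and 387 to 185 and 247.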
